A study of Mus musculus with 10 samples.

Results

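The 10 genes described here encode transcription factors that set and maintain the identity of sensory neurons: Isl1, Pou4f1, Pou4f2, Pou4f3, Drgx, Runx1, Runx3, Shox2, Maf and Mafa. They were listed by name, with earlier results of these data known, and matched by Ensembl identifier. Drgx is listed as Prrxl1 in the GENCODE vM21 name table. All 10 had a row in both deposited tables, among 26411 genes in the table of the surgery experiment and 55886 in that of the injection experiment, or 57099 genes in the tables together. All 10 passed the filter on low values in both experiments.

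RNA of the mouse trigeminal ganglion was sequenced in 10 libraries of 2 experiments. The surgery experiment compared 3 libraries of ganglia taken 10 days after the procedure that the labels call pIONT with 3 libraries taken 10 days after sham. The injection experiment compared 2 libraries taken 6 hours after urocortin 1 (UCN1), a peptide of the corticotropin-releasing factor family, was injected into the ganglion with 2 libraries taken 6 hours after phosphate-buffered saline (PBS). No genetic change is named for any group, and the strain, sex and age of the mice, the dose of UCN1 and any pooling of animals are not stated in the labels. The labels do not say whether the libraries of a group came from separate animals, so each p-value speaks to the spread among these libraries, part or all of which may be technical.

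The trigeminal ganglion holds the cell bodies of the neurons that sense touch, heat, cold and pain in the face, with their satellite glia, Schwann cells and resident macrophages. In the embryo, Isl1 and Pou4f1 end the progenitor programme and switch on sensory genes in nearly all of these neurons, and later factors split them into classes. Runx1 directs one branch of the pain- and itch-sensing neurons, Runx3 directs neurons that carry the neurotrophin receptor TrkC, and Shox2, Maf and Mafa act in touch-sensing mechanoreceptors. Most of these genes stay active in the adult neuron, where several of them keep class-specific receptors and channels expressed.

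The genes lie on several chromosomes, and their places are given in the build GRCm38. Isl1 is at chr13:116298281-116309689, Mafa at chr15:75745490-75748228, Runx1 at chr16:92601466-92826149 and Shox2 at chr3:66971727-66981771, all on the minus strand. Pou4f1 is at chr14:104461676-104467999 on the minus strand and Drgx on the same chromosome at chr14:32599407-32649246 on the plus strand. Pou4f2 at chr8:78433010-78436645 and Maf at chr8:115682942-115707794 share a chromosome and the minus strand, and Runx3 is at chr4:135120652-135177990 on the plus strand. Exons of a gene on the other strand cover 0.881% of the exon bases of Runx1 (Gm26626), 5.34% of those of Maf (Gm15655) and 4.62% of those of Shox2 (Rsrc1). The sources used here do not say whether counting was stranded, so reads in those bases cannot be assigned to one partner.

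Reads can also be split between near-identical genes, and the members were compared for this with their transcripts in the same annotation. Of the 45 pairs of members, 1 shared any run of 50 bases, the POU homeodomain factors Pou4f1 and Pou4f2. Their longest common run was 71 bases of coding sequence, at chr14:104466054-104466124 in Pou4f1 and at chr8:78435062-78435132 in Pou4f2. It accounts for nearly all of the 23 words of 50 bases that the transcripts share, and it is shown because a read that lies within it names neither gene.
Pou4f1 and Pou4f2: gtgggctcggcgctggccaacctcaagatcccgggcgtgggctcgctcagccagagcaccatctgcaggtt

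Promoters were taken from RefSeq (GRCm38.p6), which gave 9 start sites for 7 members, each from 250 bases before to 50 after the start. Pou4f3, Maf and Mafa had no entry. The 9 windows were searched on both strands for the core that RUNX proteins bind (TGTGGT), a homeodomain core (TAATTA), a POU4 core (ATNATTA), the core of the MAF recognition element (TGCTGAC), the AP-1 site (TGANTCA) and the core of the cAMP response element (TGACGT). The RUNX core was found in the windows of 3 members, Runx1, Runx3 and Drgx, against 16.8% of the 32851 promoters of the table. At the first listed start of Runx1 and of Runx3 it stood as a tandem pair with the same 2 bases between, read on the gene's strand as its reverse complement. The cores began at positions 29 and 37 in Runx1, counting the start as 1, and 134 and 126 bases before the start in Runx3. The second listed start of each gene held none of the 6 motifs. The sequences at chr16:92826025-92826324 (Runx1, minus strand) and chr4:135120395-135120694 (Runx3, plus strand) are shown because this arrangement is what the promoters of both RUNX members have in common, with the RUNX core in capitals.
Runx1: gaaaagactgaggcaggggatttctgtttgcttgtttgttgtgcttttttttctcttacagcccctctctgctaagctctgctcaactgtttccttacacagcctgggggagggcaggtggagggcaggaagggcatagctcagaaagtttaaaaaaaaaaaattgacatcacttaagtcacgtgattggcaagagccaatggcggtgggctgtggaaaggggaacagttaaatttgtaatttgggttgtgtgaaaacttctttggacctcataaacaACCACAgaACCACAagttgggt
Runx3: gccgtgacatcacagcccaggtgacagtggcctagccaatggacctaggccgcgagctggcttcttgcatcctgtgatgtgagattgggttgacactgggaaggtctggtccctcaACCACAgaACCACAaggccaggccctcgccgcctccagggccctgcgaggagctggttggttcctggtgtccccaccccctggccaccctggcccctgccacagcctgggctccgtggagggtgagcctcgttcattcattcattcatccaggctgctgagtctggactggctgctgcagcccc
Drgx held a single RUNX core 241 bases before its start. Isl1 held a single cAMP response core 59 bases before its start, and this motif was present in 7.51% of all promoters. Neither Pou4f1, Pou4f2 nor Shox2 had a match to any of the 6. The other shares over all promoters were 5.29% for TAATTA, 8.93% for ATNATTA, 4.67% for TGCTGAC and 7.81% for TGANTCA. These matches describe letters and not binding, and a window without one says nothing about the factor.

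Values are in FPKM, that is, reads divided by gene length and by library depth, as the authors deposited them. Low values were whole multiples of a step, from which depth came to 24.1 to 29.6 M reads for each library of the surgery experiment, against 15.7 to 17.1 M in the injection experiment. The members rested on 193 to 5846 reads per library in the surgery experiment and on about 204 to 4053 in the injection experiment. Neuronal markers of the ganglion were high in every library. Summed levels over 14 pan-neuronal genes were 7398 to 7489 FPKM in pIONT and 6428 to 7004 FPKM in sham libraries. In the injection experiment they were 9339 to 9452 FPKM in UCN1 and 8882 to 9422 FPKM in PBS libraries. Tubb3 alone averaged 2149 ± 133 FPKM in pIONT and 1162 ± 38.4 FPKM in sham. The median log2 fold change of the 14 genes after pIONT was -0.14, so the higher sum does not mean that these genes rose together. Summed macrophage markers were 390 to 916 FPKM in pIONT and 180 to 335 FPKM in sham libraries, and no marker of that list was at 0 in either group. Summed pituitary markers, a tissue that dissection can carry over, were 117 to 132 FPKM in pIONT libraries and 80.9 to 767 FPKM in sham libraries, with the highest value in sham 1. The tables use different gene lengths and annotations, so levels were never compared across the experiments.

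The first comparison asked how the identity factors stood 10 days after pIONT. They were lower as a group: 9 of the 10 passed the test and all 9 fell, by 16.8% to 54.7% of the sham mean. Mafa had the largest change, with a pIONT mean 0.453 times that of sham, and Shox2, Runx3, Isl1 and Pou4f3 followed. Pou4f2 missed the threshold. No member was higher after pIONT. The count depended on the libraries, at 9 without pIONT 3, 7 without pIONT 2, 6 without pIONT 1, sham 1 or sham 2, and 4 without sham 3, where Isl1, Pou4f3, Maf and Mafa were still called.

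The test was limma on log2(FPKM + 0.5), fitted over all 14672 genes of the table with a mean of at least 0.5 FPKM, and a gene is said to be called where its Benjamini-Hochberg adjusted p is under 0.05. Of all genes tested, 22.8% were called, 12.3% as lower and 10.5% as higher. In every member, all pIONT libraries lay below all sham libraries, as they did in 24.7% of all genes tested, while 18.7% of all genes had the pIONT libraries above all sham libraries. All 10 members had an unadjusted limma p under 0.05, against 37% of all genes, and all 10 had a negative log2 fold change, against 55% of all genes. The median log2 fold change of the members was -0.38, beside -0.02 over all genes tested, and the members ranged from -1.11 to -0.26. Ganglia were sequenced whole, so fewer cells of a type and less of a transcript per cell cannot be told apart in any of these values.

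**Figure D1:**
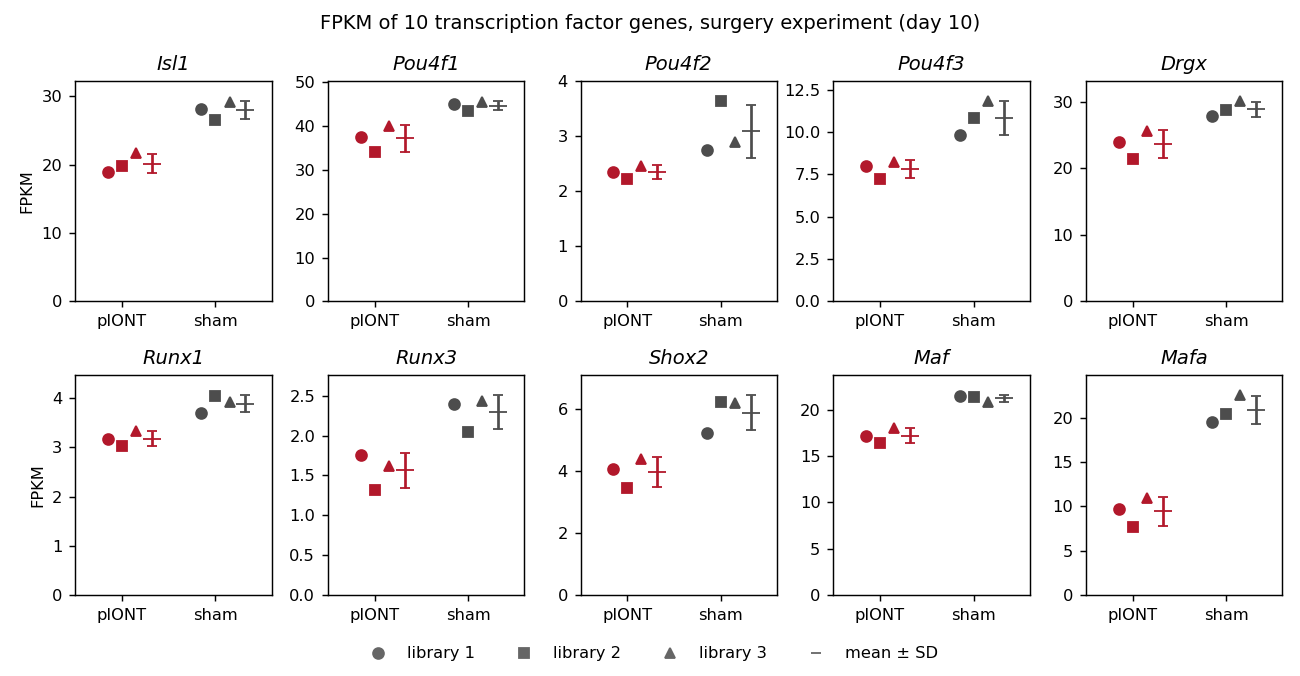
FPKM of each transcription factor gene in the 3 pIONT and 3 sham libraries, with the mean and SD of each group; each panel has its own axis from 0. In all 10 panels the pIONT points lie below the sham points, with the widest gap for Mafa (9.43 ± 1.67 FPKM in pIONT and 20.8 ± 1.57 FPKM in sham).

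The factors that act in nearly all sensory neurons come first. Isl1, a LIM homeodomain factor required for the sensory programme and for pain-sensing neurons, was measured at 18.98, 19.7 and 21.7 FPKM in pIONT libraries and at 28.2, 26.6 and 29.2 FPKM in sham libraries. It fell by 0.47 on the log2 scale (SE 0.06, limma adjusted p = 0.00386), with means of 20.2 ± 1.42 FPKM in pIONT and 28.0 ± 1.33 FPKM in sham (SD, n = 3 each). The groups were well apart, since the highest pIONT value was below the lowest sham value by more than either SD.

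Pou4f1, also called Brn3a, is the POU homeodomain factor that works with Isl1 to silence early neurogenic genes. It had 37.5, 34.1 and 40.0 FPKM in pIONT libraries and 45.0, 43.5 and 45.5 FPKM in sham libraries, the highest FPKM of the members in both groups. The fall was among the smallest of the members, -0.26 on the log2 scale (SE 0.06, limma adjusted p = 0.0244), or 16.8% of the sham mean. Drgx, a paired-type homeodomain factor that pain-sensing neurons need to connect with the brainstem and spinal cord, had 23.9, 21.5 and 25.6 FPKM in pIONT libraries and 27.9, 28.7 and 30.2 FPKM in sham libraries. Its log2 change was -0.29 (SE 0.07, limma adjusted p = 0.0264). For both genes the groups did not overlap, but the gap between them was close to the SD among the pIONT libraries. Both calls were lost without pIONT 1, sham 1, sham 2 or sham 3, each left out alone, with limma adjusted p up to 0.0869 for Pou4f1 and 0.0937 for Drgx.

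The other 2 POU4 factors are best known from other sensory cells, Pou4f2 from retinal ganglion cells and Pou4f3 from the hair cells of the ear. Pou4f3, at chr18:42394539-42397249 on the plus strand, had 7.99, 7.22 and 8.26 FPKM in pIONT libraries and 9.84, 10.8 and 11.8 FPKM in sham libraries. It fell by 0.44 on the log2 scale (SE 0.08, limma adjusted p = 0.00974), a larger fold than that of Pou4f1, and it was called under all 15 alternative settings. Pou4f2 had 2.36, 2.22 and 2.47 FPKM in pIONT libraries and 2.74, 3.64 and 2.89 FPKM in sham libraries. Its groups did not overlap either, but sham 2 stood above the other sham libraries, and the log2 difference of -0.33 (95% interval -0.57 to -0.09) did not pass, with a limma adjusted p of 0.0572. Pou4f2 rested on 193 to 335 reads per library, and it passed under 1 alternative, with values rescaled to TPM (limma adjusted p = 0.0425).

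The RUNX factors divide the neurons into classes. Runx1, which directs the non-peptidergic pain- and itch-sensing neurons, had 3.16, 3.03 and 3.33 FPKM in pIONT libraries and 3.69, 4.05 and 3.91 FPKM in sham libraries. The change was -0.26 on the log2 scale (SE 0.06, limma adjusted p = 0.0250). Runx3, which directs TrkC neurons, had 1.75, 1.32 and 1.61 FPKM in pIONT libraries and 2.40, 2.04 and 2.44 FPKM in sham libraries. These were the lowest FPKM of the members in both groups. They rest on a length of 5003 exon bases, against 1190 bases for the mean transcript of Runx3. Runx3 fell by 0.44 on the log2 scale (SE 0.10, limma adjusted p = 0.0244), and it rested on 193 to 329 reads per library. Neither gene overlapped between the groups. Both calls were close to the threshold and were lost with no filter on low values. That of Runx1 was also lost without pIONT 1, pIONT 2, sham 2 or sham 3 (limma adjusted p up to 0.0841), and that of Runx3 without pIONT 2, sham 1 or sham 3 (limma adjusted p up to 0.0876).

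Mafa and Shox2, both factors of mechanoreceptors, had the largest changes of the members. Mafa, a large MAF protein that marks touch neurons expressing the receptor tyrosine kinase Ret early in development, had 9.71, 7.64 and 10.9 FPKM in pIONT libraries. In sham libraries it had 19.5, 20.4 and 22.6 FPKM. Every sham value was far above every pIONT value. The log2 change was -1.11 (SE 0.12, 95% interval -1.41 to -0.82, limma adjusted p = 0.00190), and ordered by fold change Mafa stood 18th from the lowest among all 14672 genes tested. Its interval did not reach that of any other member, of which the lowest bound was -0.75 for Shox2.

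Maf, the related large MAF protein that shapes the endings and channels of rapidly adapting touch neurons, fell less. It had 17.1, 16.4 and 18.0 FPKM in pIONT libraries and 21.5, 21.4 and 20.8 FPKM in sham libraries, a log2 change of -0.30 (SE 0.05, limma adjusted p = 0.00632). The libraries of each group lay close together, so that this modest change was called under all 15 alternatives. Shox2, a homeodomain factor required for touch neurons with the receptor TrkB, had 4.05, 3.45 and 4.38 FPKM in pIONT libraries and 5.21, 6.22 and 6.18 FPKM in sham libraries. It fell by 0.52 on the log2 scale (SE 0.10, limma adjusted p = 0.0124), and the call was lost without sham 3 (limma adjusted p = 0.0526).

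**Figure D2:**
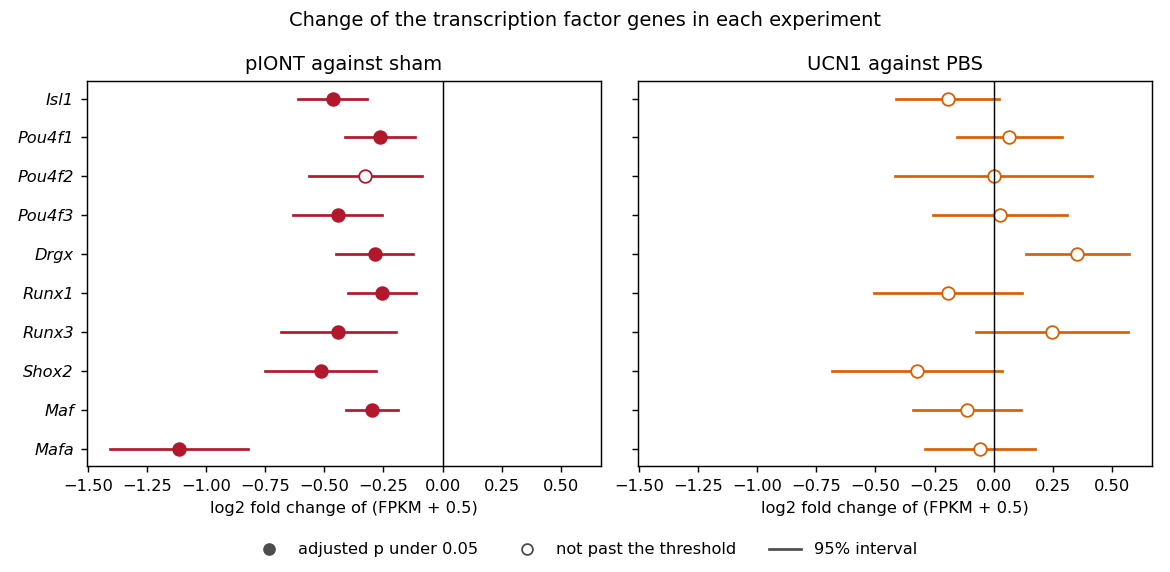
Log2 fold change of (FPKM + 0.5) for each gene with its 95% interval, pIONT against sham on the left and UCN1 against PBS on the right; filled points have an adjusted p under 0.05 and open points do not. On the left all 10 points are below 0 and Mafa at -1.11 is apart from the rest; on the right no point is filled and Drgx has the highest value at 0.35.

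FPKM is scaled by length, so the order of genes within a table depends on the length used. In the surgery table that length matched all exon bases of a gene combined, 12025 for Runx1 and 2739 for Mafa. The mean transcript lengths of these genes are 2856 and 2739 bases. The order given here therefore holds for the combined exon length only. In pIONT libraries Pou4f1 was highest, followed by Drgx and Isl1, whose ranges overlapped, then Maf, then Mafa and Pou4f3, whose ranges overlapped, and then Shox2, Runx1, Pou4f2 and Runx3. In sham libraries the order was Pou4f1, then Drgx and Isl1 with overlapping ranges, then Maf and Mafa with overlapping ranges, and then Pou4f3, Shox2, Runx1, Pou4f2 and Runx3. The position of Mafa is what differed between the groups, beside Maf in sham and beside Pou4f3 in pIONT.

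Ratios between members show the same values within each library. The pairs were chosen after the values were seen and are given as descriptions with no p. The ratio of Mafa to Maf was 0.567, 0.466 and 0.607 in pIONT libraries and 0.908, 0.956 and 1.08 in sham libraries, with no overlap. Isl1 to Pou4f1 averaged 0.543 ± 0.0365 in pIONT and 0.626 ± 0.0157 in sham libraries, and Pou4f3 to Pou4f1 averaged 0.211 ± 0.00366 in pIONT and 0.242 ± 0.0215 in sham libraries (SD, n = 3 each). Runx3 to Runx1 averaged 0.492 ± 0.0587 in pIONT and 0.593 ± 0.0770 in sham libraries, where the ranges overlapped. Drgx to Isl1 was higher in pIONT libraries, at 1.26, 1.09 and 1.18, against 0.990, 1.08 and 1.03 in sham libraries.

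The 3 pIONT libraries were not alike. Library 2 had the lowest value of 9 of the 10 members, all but Isl1, and library 3 had the highest value of 9, all but Runx3. Mafa was at 46.6%, 36.7% and 52.5% of the sham mean in pIONT 1, 2 and 3, and Shox2 at 69.0%, 58.8% and 74.6%. Library 2 also had the highest sum of 14 macrophage markers, 916 FPKM against 438 and 390 FPKM in pIONT 1 and 3, and the highest sum of 6 nerve injury genes, 3033 FPKM against 2270 and 1891 FPKM. Lyz2 made the largest part of the macrophage sum, at 449 FPKM in pIONT 2 against 164 and 142 FPKM in pIONT 1 and 3. Among pIONT libraries, Mrc1 and Cd163 were lowest in library 2, and the other macrophage markers were highest there. In sham libraries 1 to 3 the macrophage sums were 335, 180 and 217 FPKM and the injury sums 123, 126 and 125 FPKM. The part of these markers in the members' values was not tested. Without pIONT 2, 7 members were still called as lower and the log2 change of Mafa was -0.98, so the direction did not rest on that library.

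**Figure D3:**
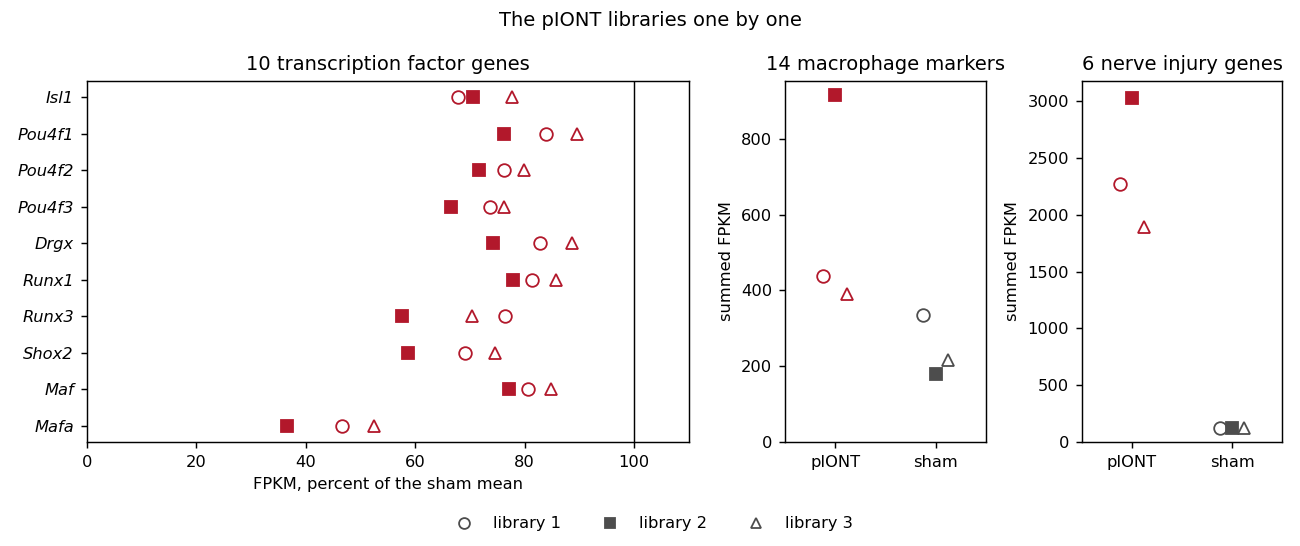
Left, FPKM of each transcription factor gene in pIONT libraries 1 to 3 as a percent of the sham mean (vertical line at 100%); middle and right, summed FPKM of 14 macrophage markers and of 6 nerve injury genes in each pIONT and sham library. Library 2 (filled squares) is leftmost for 9 of the 10 genes, and in pIONT it has the highest sums, 916 and 3033 FPKM.

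The identity factors work in complexes and have close relatives, and these did not share one direction. Of 16 partners and relatives, 15 were tested, 2 were called as higher and 3 as lower, with a median log2 fold change of 0.04 beside -0.02 over all genes. Over all genes tested after pIONT, 10.5% were called as higher and 12.3% as lower, and these shares stand beside every list count that follows for this experiment. Isl2, the second Isl gene and like Isl1 a LIM homeodomain factor, fell to 57.0 ± 4.97 FPKM in pIONT, against 74.9 ± 4.82 FPKM in sham libraries (log2 change -0.39, limma adjusted p = 0.0127). Ldb2, which bridges LIM homeodomain proteins into complexes, changed by -0.46 (limma adjusted p = 0.00796), and the LIM-only protein gene Lmo3 by -0.56 (limma adjusted p = 0.00941). Macrophage markers rose in the same libraries: 8 of 14 were called as higher and none as lower, with a median log2 fold change of 1.04. With 1 library left out, that macrophage count ranged from 1 to 10. It was 2 without pIONT 1, pIONT 2 or sham 3 and 1 without sham 2. The count of partners called as higher was 1 without any 1 of the other 5 libraries and 0 without sham 3. The part of macrophages in the values of the partners was not tested.

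Other transcription factors of sensory neurons and their precursors were called as lower more often than as higher. Of 32 listed, 26 were tested, 12 were called as lower and 3 as higher, with a median of -0.22. The count of lower genes was 6 without sham 2 and 5 without sham 3. Prdm12, a regulator required for pain-sensing neurons to form, fell to 41.4 ± 3.97 FPKM in pIONT, against 59.2 ± 3.57 FPKM in sham libraries (log2 change -0.51, limma adjusted p = 0.00605). Esrrg, an orphan nuclear receptor, changed by -0.87 (limma adjusted p = 0.00543). Klf7, which sensory neurons need for TrkA expression and axon growth, rose by 0.40 (limma adjusted p = 0.00187), and Sox11, a factor of immature and regenerating neurons, rose by 2.22 (limma adjusted p = 2.04e-05). Sox11 averaged 10.1 ± 1.06 FPKM in pIONT and 1.76 ± 0.116 FPKM in sham libraries.

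Receptor and channel genes reported to depend on Runx1 in mouse sensory neurons were measured as a list of 14. Of these, 5 were called as lower and none as higher, with a median log2 fold change of -0.29. Trpm8, the cold-activated channel, showed the largest change, with 16.8 ± 3.80 FPKM in pIONT and 36.0 ± 2.13 FPKM in sham libraries (log2 change -1.10, limma adjusted p = 0.00472). Gfra2, a co-receptor of Ret for neurturin, changed by -0.41 (limma adjusted p = 0.0249) and the sodium channel gene Scn11a by -0.35 (limma adjusted p = 0.0226). The other 9 did not pass, and they included values on both sides of 0. The count of lower genes was 4 without pIONT 1, 3 without pIONT 3 or sham 1, 2 without pIONT 2 and 1 without sham 2 or sham 3, while Trpm8 stayed called in each.

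Genes of large-diameter mechanoreceptors and proprioceptors, reported to depend on Runx3, Shox2, the MAF or the POU4 factors, were measured as a list of 13. Of these, 9 were called as lower and 1 as higher, with a median of -0.36. With 1 library left out, 6 to 8 were called as lower. The higher gene was Spp1 (log2 change 0.69, limma adjusted p = 0.0121). The neurotrophin receptor genes Ntrk2 (TrkB) and Ntrk3 (TrkC) did not pass, at -0.05 and -0.08 (limma adjusted p = 0.505 and 0.344). Ret did not pass either, at 0.07 (limma adjusted p = 0.353). The calcium-binding protein genes Calb2 and Pvalb had the largest changes. Calb2 averaged 15.2 ± 6.39 FPKM in pIONT and 59.2 ± 4.92 FPKM in sham libraries (log2 change -2.02, limma adjusted p = 0.00604). Pvalb averaged 25.01 ± 9.06 FPKM in pIONT and 64.6 ± 2.65 FPKM in sham libraries (log2 change -1.41, limma adjusted p = 0.00618). The calcium sensor gene Necab2 changed by -0.52 (limma adjusted p = 0.00261).

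Genes expressed across neurons did not fall together. Of 14 pan-neuronal and sensory neuron genes, 5 were called as higher and 5 as lower, with a median log2 fold change of -0.14. Rescaled to TPM, 3 were higher and 7 lower, and with 1 library left out 3 or 4 were higher and 3 to 6 lower. The log2 fold change was negative in 9 of the 14 and positive in 5. Snap25, which encodes a protein of transmitter release, changed by -0.59 (limma adjusted p = 0.00799). The other genes called as lower were Nefh at -0.43, Rbfox3 at -0.35, Nefm at -0.34 and Nefl at -0.28. Tubb3, the neuronal tubulin gene, rose by 0.89 (limma adjusted p = 0.000358), Elavl3, which encodes a neuronal RNA-binding protein, by 0.37 (limma adjusted p = 0.00202) and the surface glycoprotein gene Thy1 by 0.33 (limma adjusted p = 0.00798). The other genes called as higher were Prph at 0.23 and Uchl1 at 0.22. Of 8 myelinating Schwann cell markers, 6 were called as lower and none as higher, with a median of -0.33 beside -0.38 for the identity factors. Whether the share of these cells bears on the members was not tested.

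**Figure D4:**
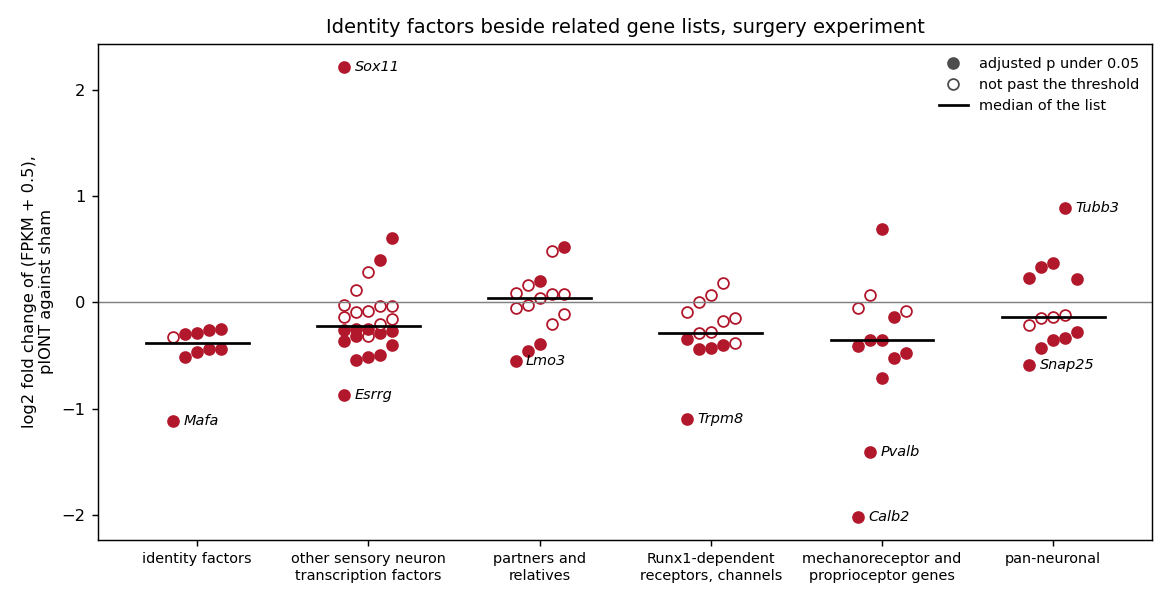
Log2 fold change of (FPKM + 0.5), pIONT against sham, for the identity factors and 5 related gene lists; each point is a gene, filled where its adjusted p is under 0.05, and the bar is the median of the list. The identity factors are all below 0 with a median of -0.38, while the partners (median 0.04) and the pan-neuronal genes (median -0.14) lie on both sides of 0. Medians of the other transcription factors, the Runx1-dependent genes and the mechanoreceptor and proprioceptor genes are -0.22, -0.29 and -0.36.

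For each called member, the genes of the other lists with the most similar profile over the 6 surgery libraries were taken, as the smallest root mean square difference of centred log2(FPKM + 0.5) among 148 genes. The nearest to Mafa was Trpm8, at 0.0613, and the next was Esrrg, at 0.155. Isl1 was nearest to Mbp (0.0537), a myelin gene, and the homeobox gene Meis2 was among the nearest to Runx3 (0.0858). For Runx1 they were the neurofilament gene Nefl (0.0262) and the zinc finger gene Zfp521 (0.0268), and Zfp521 was nearest to Drgx as well (0.0430), followed by Rbfox3 (0.0466), which encodes the neuronal protein NeuN. Pou4f3 was nearest to the neurofilament gene Nefh (0.0346) and to Rbfox3 (0.0545), and Pou4f1 to the endothelial receptor gene Flt1 (0.0367) and Elavl4 (0.0499). Shox2 was nearest to Ldb2 (0.0481) and Snap25 (0.0578), and Maf to the satellite glia gene Sparcl1 (0.0333) and to Meis1 (0.0383). These distances are over libraries that differ mainly by group, so they describe similar size of change and spread.

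The second comparison asked whether UCN1 in the ganglion altered the identity factors within 6 hours. None of the 10 passed the test, and their values lay on both sides of 0. Drgx had the largest difference and Runx3 the next among those above PBS, and Shox2 was lowest. The members' median log2 fold change was -0.03, beside -0.01 over all genes tested, with a range of -0.33 to 0.35.

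Of the 16139 genes tested here, 97 or 0.601% were called, 0.297% as lower and 0.304% as higher. The count of 0 members came from limma, and voom in limma on the recovered reads also called 0. At an unadjusted limma p under 0.05 there was 1 member, Drgx, where 13.1% of all genes lay under that value. Both UCN1 libraries lay below both PBS libraries in 3 members, Isl1, Maf and Shox2, against 23.7% of all genes. Both lay above in 2, Runx3 and Drgx, against 21.8% of all genes. A negative log2 fold change was found in 6 members, against 51.5% of all genes. With 2 libraries per group, 95% intervals were wide, and a difference that did not pass is not shown to be absent.

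Drgx had 66.3 and 66.5 FPKM in UCN1 libraries and 48.9 and 55.0 FPKM in PBS libraries. The UCN1 libraries were nearly equal and both above the PBS libraries, which differed from each other by more. The log2 difference was 0.35 (SE 0.10, 95% interval 0.13 to 0.57), with an unadjusted limma p of 0.00579 and a limma adjusted p of 0.189. Over the alternatives the adjusted p ranged from 0.0726 to 0.669, so the difference failed the correction throughout. The ratio of Drgx to Isl1, a pair chosen after the values were seen, was 0.949 and 1.03 in UCN1 libraries and 0.609 and 0.749 in PBS libraries.

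Isl1 had 69.8 and 64.3 FPKM in UCN1 libraries and 80.4 and 73.4 FPKM in PBS libraries, a log2 difference of -0.19 (95% interval -0.41 to 0.02, limma adjusted p = 0.426). Shox2 had 19.1 and 14.01 FPKM in UCN1 libraries and 21.7 and 19.6 FPKM in PBS libraries, a difference of -0.33 (95% interval -0.68 to 0.03, limma adjusted p = 0.422). In both genes the UCN1 libraries were the lower pair, and for Shox2 they differed more from each other than the group means did. Runx3 had 15.03 and 18.2 FPKM in UCN1 libraries and 13.0 and 14.8 FPKM in PBS libraries, a difference of 0.25 (95% interval -0.07 to 0.57, limma adjusted p = 0.485). Runx1 had 15.8 and 13.1 FPKM in UCN1 libraries and 17.5 and 15.6 FPKM in PBS libraries, a difference of -0.19 (95% interval -0.51 to 0.12, limma adjusted p = 0.575). The ranges of Runx1 overlapped and those of Runx3 only just did not.

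Mafa, which had the largest change after pIONT, had 28.5 and 27.1 FPKM in UCN1 libraries and 30.0 and 27.9 FPKM in PBS libraries. Its log2 difference of -0.06 had a 95% interval of -0.29 to 0.18 (limma adjusted p = 0.848). Maf had 49.2 and 43.2 FPKM in UCN1 libraries and 50.1 and 49.6 FPKM in PBS libraries, a difference of -0.11 (95% interval -0.34 to 0.12, limma adjusted p = 0.668). The experiments differ in treatment, time and table, and the difference between them was not tested.

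The POU4 genes overlapped between the groups. Pou4f1 had 83.8 and 82.1 FPKM in UCN1 libraries and 73.8 and 85.0 FPKM in PBS libraries, a log2 difference of 0.07 (95% interval -0.16 to 0.29, limma adjusted p = 0.815). Pou4f3 had 13.99 and 12.8 FPKM in UCN1 libraries and 13.6 and 12.7 FPKM in PBS libraries, a difference of 0.03 (95% interval -0.26 to 0.31, limma adjusted p = 0.953). Pou4f2 had 4.61 and 4.50 FPKM in UCN1 libraries and 4.06 and 5.11 FPKM in PBS libraries, with a 95% interval of -0.42 to 0.42 for the difference (limma adjusted p = 1.00). In each of these genes the 2 groups overlapped, and the direction changed with the library left out.

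**Figure D5:**
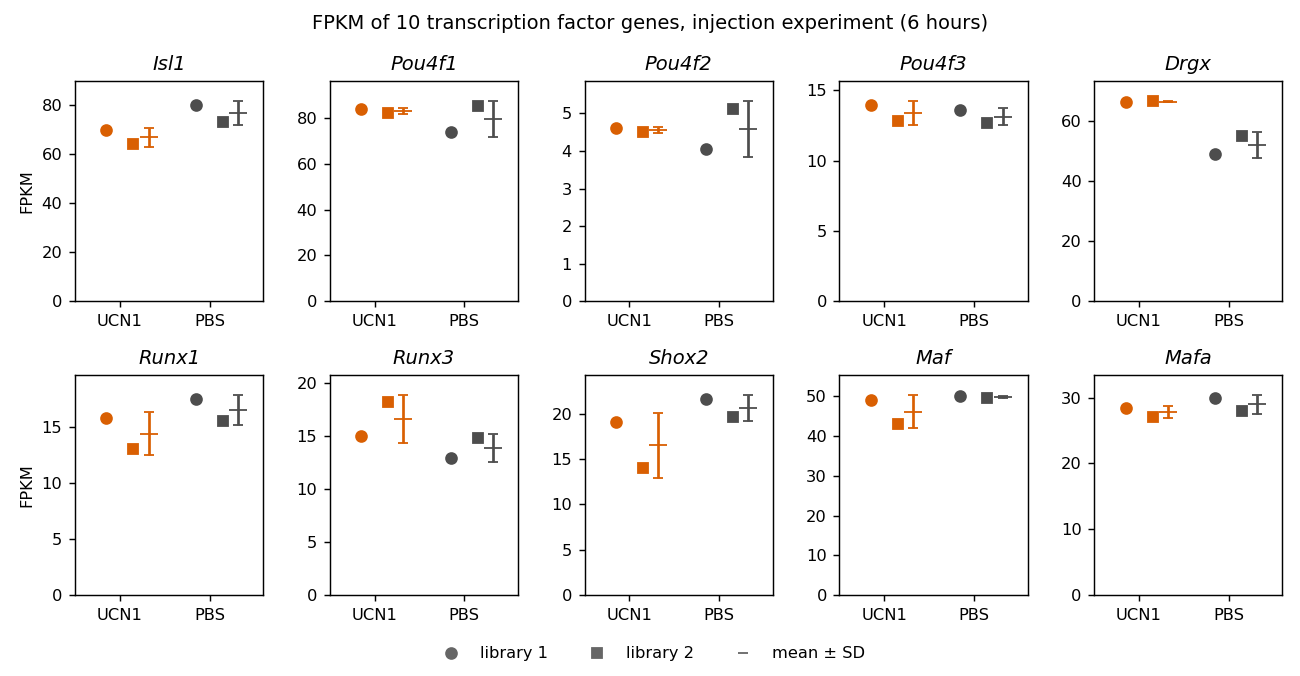
FPKM of each transcription factor gene in the 2 UCN1 and 2 PBS libraries, with the mean and SD of each group; each panel has its own axis from 0. The groups overlap or lie close together in most panels, and the clearest separation is that of Drgx (66.4 ± 0.153 FPKM in UCN1 and 51.9 ± 4.28 FPKM in PBS).

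Related lists were also without calls at 6 hours. None was called among 15 partners and relatives, 28 other sensory neuron transcription factors, 14 Runx1-dependent genes, 13 mechanoreceptor and proprioceptor genes and 14 pan-neuronal genes, with medians of -0.06, 0.01, 0.06, -0.10 and -0.01. At an unadjusted limma p under 0.05 there were 3, 3, 1, 2 and 1 genes in these lists, and voom called 1 among the other transcription factors and 0 in the rest. Isl2 averaged 139.6 ± 0.394 FPKM in UCN1 and 148 ± 2.06 FPKM in PBS libraries (log2 difference -0.08, limma adjusted p = 0.688). Of the nerve injury genes, Atf3 was called as higher, at 20.7 ± 0.414 FPKM in UCN1 and 8.90 ± 1.46 FPKM in PBS libraries (log2 change 1.18, limma adjusted p = 0.0179), a call that was lost without UCN1 1, UCN1 2 or PBS 2, with no filter and with no mean-variance trend (limma adjusted p up to 0.357). Summed pituitary markers were 9.17 to 9.61 FPKM in UCN1 and 124 FPKM in both PBS libraries, and of that list Fshb and Pou1f1 were at 0 in UCN1, while Lhb was at 0 in both groups. Whether this bears on the members was not tested.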

How the data were processed

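RNA of mouse trigeminal ganglia was sequenced in 10 libraries, 3 pIONT and 3 sham (day 10), and 2 UCN1 and 2 PBS (6 hours). Libraries were built from TRIzol-extracted total RNA with the NEBNext Ultra II kit, per the labels' protocols. Each experiment has its own table of FPKM values, deposited by the authors. STAR, HTSeq, DESeq2 and the build GRCm39 are named, without version or role, per the submitters' processing notes. The coordinates in the injection table are those of GRCm38 (99.4% of matched genes had the same start and end as in GENCODE vM21), against 1.99% in the surgery table. All columns of both tables were assigned to a sample.

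FPKM keeps no counts, but low values were whole multiples of a step within 0.1 reads (92.4% to 92.9% in the surgery and 98.8% to 99.0% in the injection experiment, up to 20 reads), which gave the depths. Member reads were whole within that tolerance for 60 of 60 values in the surgery table and 24 of 40 in the injection table, where they are approximate. FPKM as deposited was tested as log2(FPKM + 0.5) for genes with a mean of at least 0.5 FPKM over the libraries of an experiment, in limma 3.58.1 (R 4.3.3) with a mean-variance trend, two-sided, with Benjamini-Hochberg adjustment over all genes tested. Each table was fitted alone. The log2(FPKM + 0.5) scale understates changes of low genes.

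The members and 15 gene lists of 180 genes, members included, were chosen with earlier results of these data known. Outside the members, the text names up to 4 called genes of a list by smallest p, or without a call up to 2 with the highest mean level, and the 2 genes most like each called member. Spp1, Ntrk2, Ntrk3, Ret, Nefm, Uchl1, Prph, Lyz2, Mrc1 and Cd163 are named outside this rule. Single values of some genes taken by this rule are not reported here. Alternatives were pseudocounts of 0.1 and 1 FPKM, no filter or a filter of 2 FPKM, rescaling to TPM or by median-of-ratios factors, no trend, a replicate block, voom on recovered reads, and each library left out.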

Additional observations from a re-analysis of the deposited data

How the results depend on the processing

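Surgery experiment: no member changed direction under any of the alternatives run, and the log2 change of Mafa stayed between -1.22 and -0.98. Of 149 alternative fits of the 10 members, 129 kept the call or its absence, 19 lost a call and 1 gained one. The number of members called was 9, against 7 with no filter, 8 of 9 tested with a filter of 2 FPKM, 10 after rescaling to TPM and 4 to 9 with 1 library left out. Genes called numbered 3344, and 1689 to 2969 with 1 library left out. Of the calls, 46.0% were higher, 36.6% after rescaling to TPM, and 54.5% with median-of-ratios factors; the median of all genes moved by less than 0.1 in each.

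Injection experiment: 0 members were called under any alternative run. Genes called numbered 97, against 2 with no filter, 155 with a filter of 2 FPKM, 5 with no trend, 352 with voom and 5 to 38 with 1 library left out. Values near 0 changed sign: Pou4f2 was 0.000635 with a pseudocount of 0.1 FPKM, 0.0111 with median-of-ratios factors and -0.150 to 0.150 with 1 library left out; Pou4f3 was -0.00207 in TPM and -0.0362 to 0.0884 with 1 library left out; Pou4f1 was -0.0354 to 0.167 with 1 library left out. The causes were not tested.

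The replicate numbers gave no sign of pairing in the surgery experiment. Same-numbered deviations correlated there at -0.055, -0.202 and 0.068, and differently numbered ones at -0.206 to 0.231. In the injection experiment the value was 0.039 for both pairs. With 2 libraries per group these values are equal by construction, and differently numbered ones are their negatives, so they amount to a single value. That value was near 0 and gave no sign of pairing, but a single value cannot settle whether the samples were paired. With the replicate block, 2085 genes and 8 members were called after pIONT (not Runx1), and 260 genes and 0 members after UCN1.

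Depth limits Pou4f2 and Runx3 most, at 193 to 335 reads per library in the surgery experiment. With 2 libraries a group, the UCN1 comparison shows large changes only. The sources used here do not state strandedness, and bulk values do not separate cell number from RNA per cell.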

Other observations

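Markers of other cells in the ganglion give values that stand beside those of the identity factors. Of 10 satellite glia markers, 2 were called as higher and 2 as lower after pIONT, with a median log2 fold change of 0.04; with 1 library left out, 1 or 2 were higher and 0 or 1 lower. Of 8 endothelial markers, 1 was called as lower, Pecam1 (log2 change -0.24, limma adjusted p = 0.0223), a call that was lost when any 1 of the 6 libraries was left out. None of 8 fibroblast and meningeal, 4 lymphocyte, 5 pituitary and 4 brainstem glia markers passed limma's test after pIONT, with medians of 0.51, -0.20, -0.83 and -0.51. At an unadjusted limma p under 0.05 there were 1, 1, 0 and 0 of them, and voom called 0 in each list. All 6 nerve injury genes were called as higher, with a median log2 fold change of 5.80.

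At 6 hours after UCN1, limma called 0 of 14 macrophage, 10 satellite glia, 8 Schwann cell, 8 endothelial, 2 brainstem glia and 1 lymphocyte markers. At an unadjusted limma p under 0.05 there were 2, 3, 1, 0, 0 and 0 of them, and voom called 1 satellite glia marker and 0 of the others. In the fibroblast and meningeal list 2 of 9 were called as lower, Mfap4 (log2 change -4.73, limma adjusted p = 8.41e-06) and Fmod (-3.98, limma adjusted p = 0.00864); the call of Fmod was lost without UCN1 1 or UCN1 2, with no filter and with no mean-variance trend. In the pituitary list 3 of 5 tested were called as lower: Gh (-4.03, limma adjusted p = 8.41e-06), Prl (-3.15, limma adjusted p = 0.000748) and Pomc (-1.84, limma adjusted p = 0.0223). The calls of Prl and Pomc were lost with no filter (limma adjusted p = 0.122 for Prl), and that of Pomc also with no trend and when any 1 of the 4 libraries was left out. The part of these tissues in the members' values was not tested.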
